A study of Mus musculus with 9 samples.

Results

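The 593 sites described here are wild-type intervals that carried both trimethylated histone H3 lysine 4 (H3K4me3) and trimethylated lysine 36 (H3K36me3), and at which, of the 2 catalytic PRDM9 mutants studied, only the EP mutant still had an H3K4me3 interval. They were chosen by their measured intervals: each overlapped an EP H3K4me3 interval by at least 1 bp, no EK H3K4me3 interval, and no EP interval with both marks. They make up 593 of the 6894 double-marked intervals of wild type (8.60%, 95% Wilson interval 7.96 to 9.29%). Chromatin immunoprecipitation with sequencing was done on mouse spermatocytes at 14 days after birth, and each of 3 genotypes had 2 libraries for H3K4me3 and 1 for H3K36me3. The genotypes were C57BL/6J wild type (PRDM9-WT), C57BL/6J-Prdm9<em2Kpgn>/Kpgn homozygotes (PRDM9-EP/EP), in which glutamate 360 is replaced by proline, and C57BL/6J-Prdm9<em3Kpgn>/Kpgn homozygotes (PRDM9-EK/EK), in which it is replaced by lysine. The labels call both substitutions severe hypomorphs in catalysis, and both mutants carry the changed residue on both alleles in every cell. The data are 1 list of positions per genotype and kind, limited by the authors to places already known to carry PRDM9-dependent H3K4me3, with no height, score or read count, so the depth is unknown, there is no replicate error, and no comparison below was tested. Of the 9 libraries, 6 are labelled as re-analysed, namely every wild-type library, the pair for H3K4me3 in EP and 1 of the pair for H3K4me3 in EK. For H3K36me3 that label goes with wild type alone, so there re-analysis and genotype cannot be told apart. For H3K4me3 it covers the whole EP pair but only 1 of the EK pair. The EP and EK lists that define the members thus differ in it too. With 1 list per genotype, that difference and the genotype cannot be told apart either. No batch is named in the labels, and an effect of batch was not tested.

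PRDM9 binds DNA through a zinc finger array and methylates both lysines on the surrounding nucleosomes in early meiotic prophase. The marked places are where SPO11 makes the DNA breaks that start meiotic recombination, and H3K4me3 spreads over several nucleosomes on either side of the bound motif. H3K4me3 also marks active promoters, and H3K36me3 also lies along the bodies of transcribed genes, where SETD2 places it.

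Few of the 593 sites, all from the set of PRDM9-dependent places, touched an annotated start of transcription, and the promoter sequences below show what those few look like. A window of 300 bases, from 250 before to 50 after a RefSeq transcript start, overlapped 8 members (1.35%), against 62 of all 6894 double-marked intervals (0.899%). The 8 members held 9 windows of 8 genes, and 4 of them are printed 5′ to 3′ on the strand of the gene, from RefSeq on GRCm38.p6, with the bases inside the EP H3K4me3 interval in capitals. They are 1 window that lay inside the wild-type double-marked interval but wholly outside the EP interval, and 3 that lay wholly inside both.
Zbtb46, minus strand, chr2:181424339-181424638: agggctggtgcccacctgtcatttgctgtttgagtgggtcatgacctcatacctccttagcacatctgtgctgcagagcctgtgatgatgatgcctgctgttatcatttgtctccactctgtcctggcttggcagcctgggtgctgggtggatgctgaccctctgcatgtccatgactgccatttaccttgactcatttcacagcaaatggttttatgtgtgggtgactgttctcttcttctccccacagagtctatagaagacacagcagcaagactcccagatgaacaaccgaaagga
5730405A17Rik, minus strand, chr8:61428076-61428375: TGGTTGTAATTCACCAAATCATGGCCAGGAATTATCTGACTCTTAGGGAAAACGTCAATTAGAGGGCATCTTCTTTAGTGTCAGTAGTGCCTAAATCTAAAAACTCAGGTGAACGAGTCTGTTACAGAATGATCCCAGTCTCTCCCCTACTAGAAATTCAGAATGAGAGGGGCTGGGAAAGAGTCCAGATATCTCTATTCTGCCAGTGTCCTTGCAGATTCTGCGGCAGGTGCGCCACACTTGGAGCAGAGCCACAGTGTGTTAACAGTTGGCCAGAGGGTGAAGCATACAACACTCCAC
Dmrtc1b, plus strand, chrX:102710927-102711226: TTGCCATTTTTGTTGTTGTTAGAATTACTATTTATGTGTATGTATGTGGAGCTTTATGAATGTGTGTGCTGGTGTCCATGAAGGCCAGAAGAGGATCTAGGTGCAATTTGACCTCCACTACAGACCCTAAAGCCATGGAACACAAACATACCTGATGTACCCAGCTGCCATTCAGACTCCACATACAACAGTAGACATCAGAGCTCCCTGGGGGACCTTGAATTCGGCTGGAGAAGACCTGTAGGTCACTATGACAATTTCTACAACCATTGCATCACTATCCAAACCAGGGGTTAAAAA
AW112010, minus strand, chr19:11050517-11050816: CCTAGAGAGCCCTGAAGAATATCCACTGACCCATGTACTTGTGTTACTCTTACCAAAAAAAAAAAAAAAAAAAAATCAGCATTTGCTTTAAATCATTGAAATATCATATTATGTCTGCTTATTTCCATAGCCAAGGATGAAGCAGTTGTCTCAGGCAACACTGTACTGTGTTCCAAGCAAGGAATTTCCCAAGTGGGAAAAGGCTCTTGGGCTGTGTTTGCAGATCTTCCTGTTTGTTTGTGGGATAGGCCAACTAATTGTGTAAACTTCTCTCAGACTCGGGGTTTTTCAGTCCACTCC
A transcript start need not be a gene boundary, and those of the protein-coding Zbtb46 and Dmrtc1b were internal: their sites lay 40710 and 2602 bp from the nearest protein-coding boundary. The window of Zbtb46, a zinc finger transcription factor known from dendritic cells, is at the edge of its site, with that internal start 1218 bp from the midpoint of a wild-type H3K4me3 interval of 2537 bp. EP kept 1217 bp in the middle of that interval and no base of the window. Dmrtc1b, a gene of the X chromosome with closely related neighbours, had its internal start 35.5 bp from the wild-type midpoint, and EP kept 1029 of 1716 bp there. How reads from near-identical copies were placed is not given in the sources used here. The long noncoding gene 5730405A17Rik, which starts inside Sh3rf1, had its start 221 bp from the midpoint, and EP kept 1031 of 2083 bp. AW112010, another noncoding gene, had its start 524 bp away, and EP kept 1098 of 1959 bp. The noncoding Gm6602 on chromosome 3 had its start 502 bp from the midpoint, and EP kept 670 of 1837 bp and 5 bases of the window. The dinucleotide CG, which reads the same on both strands, occurred 1 time in the window of Zbtb46, 4 times in that of 5730405A17Rik, 1 time in that of Dmrtc1b and 1 time in that of AW112010. Across the 9 windows the count ran from 0 to 6, and 8 held 5 or fewer, as did 43.56% of all 32851 windows of the table, whose median is 7. GC content was 27.67% to 54.0%, against a median of 52.67% over all windows.

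The rule itself sets the number of members, which is given against the lists they came from as a description. An EP H3K4me3 interval lay at 20.5% of the wild-type double-marked intervals, and an EP interval without an EK interval at 9.82% of them. The same pattern held for 5.6% of all 18427 wild-type H3K4me3 intervals and for 3.08% of the 11535 that lay outside the double-marked list. The double-marked sites with H3K4me3 in EP only numbered 677, of which 84 had both marks in EP and 593 are the members. Other double-marked sites had H3K4me3 in both mutants (737 sites, 10.7%), in EK only (62, 0.899%) or in neither (5418, 78.6%). Of the 737 sites kept in both, 478 had no double-marked interval in either mutant, and these sites are the closest comparison for the members, from which they differ by the EK interval. The EK list is the shorter list, with 3307 intervals of median width 664 bp against 3703 of 693 bp in EP.

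In wild type the members were broad sites. The double-marked interval of a member had a median width of 1813 bp (95% interval of the median 1778 to 1840 bp), with an interquartile range of 1542 to 2052 bp and extremes of 152 and 3951 bp. Sites left in neither mutant had a median of 1279 bp (1267 to 1289 bp), and their upper quartile, 1523 bp, lay below the lower quartile of the members. The 478 comparison sites had a median of 1669 bp (1521 to 1821 bp), an interval that overlaps that of the members, but their interquartile range was wider, from 995.2 to 2162.5 bp. The 84 sites with both marks in EP were broader than the members, with a median of 2136.5 bp. At the other end were the 62 sites left in EK only, with a median of 1005.5 bp. Measured over the H3K4me3 interval that holds the site, members had a median of 2007 bp (1982 to 2054 bp), the comparison sites 1927.5 bp and the sites left in neither 1454 bp. All 737 sites kept in both mutants had 2063 bp. The 355 wild-type sites without the double mark that were left in EP only had 1949 bp (1771 to 2044 bp). Breadth was thus not particular to the members. The double mark covered the whole H3K4me3 interval at 153 of 593 members (25.8%, 22.4 to 29.5%), at 57 of the 84 sites with both marks in EP (67.9%, 57.3 to 76.9%) and at 32.5% of all double-marked sites. At the comparison sites it did so at 109 of 478 (22.8%, 19.3 to 26.8%), an interval that overlaps that of the members.

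The share of sites that were members changed with wild-type width. When the 6894 sites were split into 10 deciles by double-marked width, members made up 3.90% of the narrowest decile (27 of 693, 2.69 to 5.61%) and 1.59% of the third (11 of 694). Up to the sixth decile the share stayed under 4%. It was 6.97% in the seventh decile (48 of 689), 14.2% in the eighth (98 of 690), 23.1% in the ninth (159 of 688, 20.1 to 26.4%, widths 1755 to 2011 bp) and 25.4% in the widest (175 of 690, 22.3 to 28.7%). The intervals of the last pair overlap, so no difference between them is shown, while both lie above the interval of the eighth decile. The comparison sites had another profile: 15.3% of the narrowest decile (106 of 693), 3.04% of the eighth, 9.88% of the ninth and 23.5% of the widest (162 of 690). In the eighth decile, with widths of 1580 to 1754 bp, members thus outnumbered the comparison sites, at 98 against 21. Among the narrowest sites members were the smaller class, with 27 against 106. Of the 84 sites with both marks in EP, 55 were in the widest decile and 13 in the ninth.

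**Figure D1:**
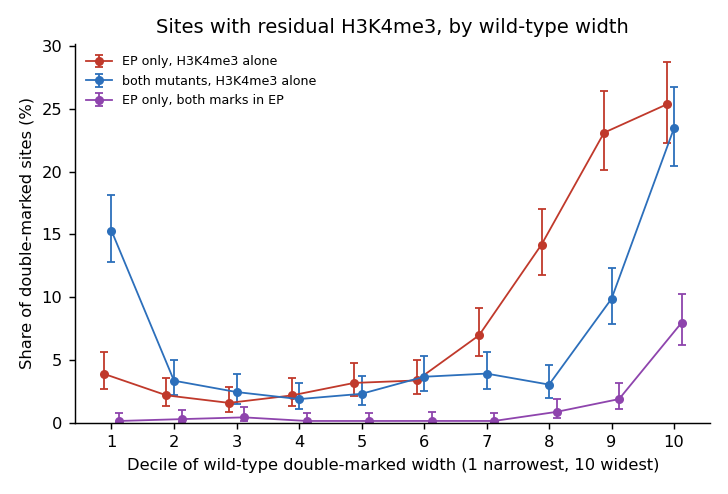
Share of wild-type double-marked sites (vertical axis, %) in 3 classes, by decile of wild-type double-marked width (horizontal axis, 1 narrowest and 10 widest). Points are shares and bars are 95% Wilson intervals, which cover sampling of sites only. The members (red) are at 14.2% in the eighth decile, where sites with H3K4me3 alone in both mutants (blue) are at 3.04%, and the classes come close again in the widest decile, at 25.4% and 23.5%.

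What EP kept at the members was a short piece in the middle. The EP H3K4me3 interval had a median width of 813 bp (783 to 846 bp), with quartiles of 663 and 967 bp and extremes of 114 and 1590 bp. Between 601 and 1000 bp lay 378 of the 593 intervals (184 up to 800 bp and 194 above), 102 were narrower and 113 wider. Relative to the wild-type H3K4me3 interval, EP kept a median of 0.4152 of the width (0.4045 to 0.4243), and the quartiles were 0.3465 and 0.4785. At 486 members (82.0%, 78.7 to 84.8%) the EP interval was at most 50% as wide as the wild-type interval. In all, 1159.4 kb of wild-type H3K4me3 at the members corresponded to 480 kb in EP, or 41.4%. These pieces came from 596 EP intervals, 16.1% of the EP list, because 3 members held 2 EP intervals each.

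The EP interval was nearly always nested in the wild-type one. It lay inside the wild-type H3K4me3 interval at 587 of 593 members (99.0%, 97.8 to 99.5%) and inside the double-marked interval at 579 (97.6%). It contained the wild-type midpoint at 540 members (91.1%, 88.5 to 93.1%). The distance between the midpoints had a median of 95.5 bp and quartiles of 42 and 180.5 bp. On both flanks the EP interval fell short of the wild-type border by similar lengths. The median was 583 bp on the side of lower coordinates and 596 bp on the other. The larger shortfall was on the lower side at 278 members and on the higher side at 314. Only 60 members (10.1%, 7.94 to 12.8%) shared a border to the base with the wild-type interval, and only 1 was identical to it. At the 84 sites with both marks in EP, the EP interval was inside the wild-type one at 98.8% and contained its midpoint at 91.7%. For the 478 comparison sites the shares were 95.6% and 80.1%, so nesting was not particular to the members. The lists were limited by the authors to known PRDM9-dependent places. Any part of that limiting in the nesting or the shared borders was not tested.

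**Figure D2:**
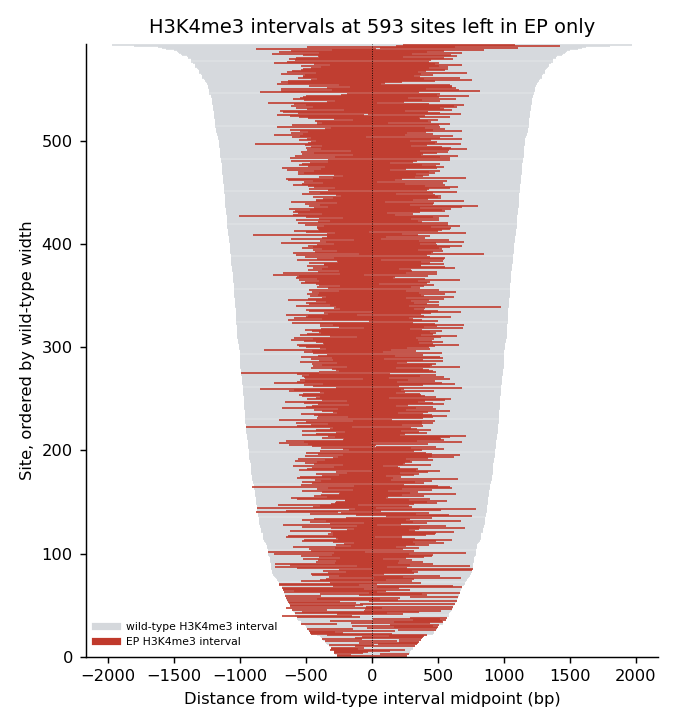
Extent of the wild-type (grey) and EP (red) H3K4me3 intervals at the 593 members, 1 line per site, ordered by wild-type width from the bottom up (vertical axis), against the distance from the wild-type midpoint in bp (horizontal axis). The red pieces lie around the centre at 540 members and leave both flanks of the grey intervals uncovered, with medians of 583 and 596 bp.

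Broader wild-type members had broader EP pieces. In the narrowest of 4 nearly equal groups of members (529 to 1757 bp of H3K4me3, 150 sites) the EP interval had a median of 654.5 bp, and in the second (147 sites) of 770 bp. The third (148 sites) had a median of 873 bp and the broadest (2231 to 3951 bp, 148 sites) of 968.5 bp. The wild-type medians of these groups were 1453.5, 1917, 2114.5 and 2387.5 bp. The kept share had medians of 0.4517, 0.414, 0.4174 and 0.393 in these groups. Across the 593 members the EP and wild-type widths had a Pearson r of 0.6156 and a Spearman rho of 0.5564, and across the 478 comparison sites 0.8453 and 0.8355. These correlations run over sites of the same libraries, which are no replicates, and the lower limit on kept width described below binds both classes.

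Members and comparison sites differed in how much EP kept. At the 478 sites with H3K4me3 in both mutants, the EP interval had a median of 990 bp (947 to 1027 bp) and covered 0.517 of the wild-type width, and it was at most 50% as wide at 207 sites (43.3%, 38.9 to 47.8%). Its border coincided with the wild-type border at 186 of those sites (38.9%, 34.7 to 43.4%), against 10.1% of the members. Since the wild-type widths of the groups differ, the EP widths were also set side by side within quintiles of wild-type H3K4me3 width. In the second quintile they were close, with an EP median of 660.5 bp at 30 members and 675.5 bp at 38 comparison sites, and wild-type medians of 1290 and 1290.5 bp. In the third the EP medians were 713 and 899 bp, at wild-type medians of 1537 and 1519 bp. In the fourth they were 726 and 969.5 bp, at wild-type medians of 1805 and 1789 bp. In the third and the fourth quintile, of near-equal wild-type medians, the EP median was lower where EK had no interval. The narrowest quintile had 352 and 422 bp and the widest 904 and 1242 bp, but there the comparison sites were also wider in wild type, with 813 against 784 bp and 2402.5 against 2180 bp. EK itself was the narrower mutant where both were present: the ratio of EK to EP width had a median of 0.8909 (0.8688 to 0.9054) at the 478 sites, and EK was narrower at 350, wider at 118 and equal at 10. The 84 sites with both marks in EP resembled the members in the share kept, with a median of 0.4378 and an EP width of 927.5 bp. The 355 wild-type sites that carried H3K4me3 without the double mark and were likewise left in EP only had a median EP width of 754 bp and a kept share of 0.4284.

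**Figure D3:**
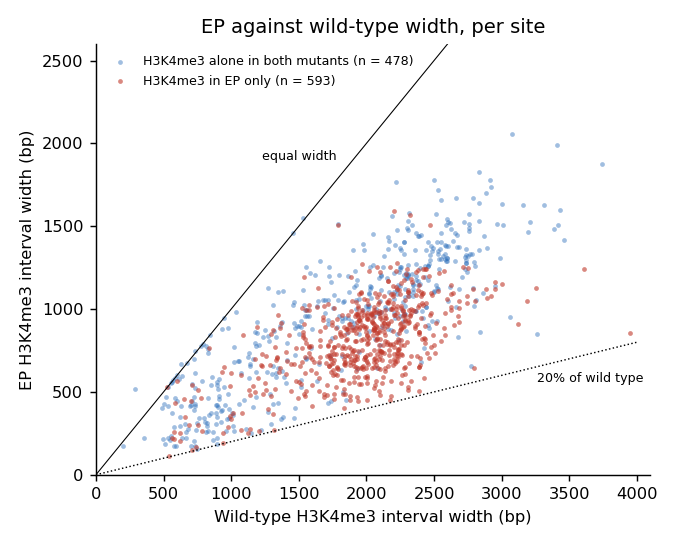
Width of the EP H3K4me3 interval (vertical axis, bp) against the width of the wild-type H3K4me3 interval (horizontal axis, bp), 1 point per site, for the 593 members (red) and the 478 sites with H3K4me3 alone in both mutants (blue). The solid line marks equal widths and the dotted line 20% of wild type. The members lie around medians of 2007 bp in wild type and 813 bp in EP. Within the fourth quintile of wild-type width the EP median is 726 bp for members and 969.5 bp for the blue points, and within the second it is 660.5 and 675.5 bp.

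A lower limit on what could be kept was visible in the lists. Of 3681 overlaps between EP and wild-type H3K4me3 intervals, only 9 covered under 20% of the wild-type interval, while 126 covered 20 to 25% and 149 covered 25 to 30%. The EK list had the same edge, with 12 of 3280 overlaps under 20% and 109 from 20 to 25%. Among the members no interval lay under 20%, the lowest was at 20.46%, and 25 lay between 20 and 25%. In the double-marked lists the lowest cover of an H3K4me3 interval of the same genotype was 20.1% in wild type and 21.74% in EP. Few lay near that edge, with 4 of 6894 and 2 of 412 from 20 to 25%. With such an edge, a site missing from the EK list may still carry H3K4me3 over a shorter stretch. Likewise, a site missing from the EP double-marked list may still carry both marks over a shorter stretch. No threshold is given in the sources used here, and its part in the loss of EK intervals or EP double marks was not tested.

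Few members depended on the exact limits of the rule. The member with the least EP overlap shared 1 bp with it, the next shared 53, 114, 148 and 165 bp, and 6 in all shared under 200 bp. The members closest to an EK interval were 16, 379, 612 and 614 bp away, and the next was 1042 bp away. The median distance from a member to the nearest EK interval was 246938 bp, 27 members had one within 10 kb, and 1 member, on the Y chromosome, had none on its chromosome. Just outside the rule, 16 sites were left out for an EK overlap of under 200 bp, the least being 57, 81, 108, 136 and 145 bp. Among sites left in neither mutant, 18 had an EP interval within 1 kb, the closest at 24, 26 and 80 bp. The least overlap with an EP double-marked interval that excluded a site was 192 bp. No member had an EK interval with both marks, as the rule ensures, because all 243 such intervals lay inside an EK H3K4me3 interval.

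At each of the 8 broadest members EP kept under 50% of the wild-type width. The broadest, on chromosome X from 142895371 to 142899321 within Ammecr1, had a wild-type H3K4me3 interval of 3951 bp, of which EP kept 853 bp, a share of 0.2159 and close to the lower edge of the list. The next, on chromosome 2 from 69264378 to 69267893 within Abcb11, the bile salt export pump, went from 3609 to 1244 bp. A site within Sorl1, a sorting receptor of neurons, on chromosome 9 from 42009984 to 42013236, went from 3253 to 1125 bp. It was the exception among the 8 in having an EK interval near, 4999 bp away. Within Larp1, an RNA-binding regulator of translation, the interval on chromosome 11 from 58031390 to 58034578 went from 3189 to 1046 bp. Within Agps, an enzyme of ether lipid synthesis, that on chromosome 2 from 75845560 to 75848513 went from 2954 to 1161 bp. Pbx3, a homeodomain transcription factor, held a site on chromosome 2 from 34269078 to 34272025 that went from 2948 to 1119 bp. A site outside genes on chromosome 12, from 113004727 to 113007490, went from 2924 to 1080 bp, and one within Map2, a microtubule-associated protein of neurons, on chromosome 1 from 66195631 to 66198381, from 2751 to 1246 bp. The 8 EP widths thus spanned 853 to 1246 bp, and all of them exceeded the median of 813 bp over the members.

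At the other extreme were members where EP kept most of a narrow interval. Within Mylk, the myosin light chain kinase, on chromosome 16 from 34998855 to 34999383, the EP and wild-type intervals were identical at 529 bp. Within Tsnax, the partner of the nucleic acid-binding protein translin, on chromosome 8 from 125025000 to 125025596, EP kept 564 bp against 597 bp. Within Nrp2, a semaphorin receptor, on chromosome 1 from 62776111 to 62776948, EP kept 764 of 838 bp. The fourth, on chromosome 16 from 31546892 to 31548669 within the noncoding Gm34032, was broad, with 1505 against 1791 bp. The narrowest member, within Wdr41 on chromosome 13 from 94978139 to 94978290, was 152 bp wide and met the rule by 1 bp. Its H3K4me3 interval was 583 bp in wild type and 432 bp in EP, and the EK interval 16 bp away touched that wild-type H3K4me3 interval, so it lacked EK only within the double-marked stretch. The next narrowest, outside genes on chromosome 3 from 38236619 to 38236889 and on chromosome 12 from 8510446 to 8510866, had 219 and 221 bp in EP. Apart from Wdr41, the members nearest to EK lay on chromosome 11 from 82611181 to 82613217 outside genes, on chromosome 2 within Rbms1 and within Fcna, and on X within Mageb16. EP kept 965, 544, 302 and 963 bp there.

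A smaller share of members than of other sites lay in a protein-coding gene. A protein-coding gene overlapped 259 members (43.7%, 39.7 to 47.7%), against 50.07% of the 6301 other double-marked sites (48.84 to 51.31%), 49.5% of all and 49.6% (48.3 to 50.9%) of those left in neither mutant. For the 478 comparison sites the share was 39.8% (35.5 to 44.2%), an interval that overlaps that of the members. The sites with both marks in EP stood far from all of these, with 71 of 84 in a protein-coding gene (84.5%, 75.3 to 90.7%), although the rule separates them from the members by the EP double mark alone. The 62 sites left in EK only were at 64.5% (52.1 to 75.3%). All 737 sites kept in both mutants were at 48.44% (44.85 to 52.05%), above the 39.8% of the 478 without a mutant double mark. Those with a mutant double mark thus also had a higher share. Members at least as wide as the median double-marked interval were at 43.34%, nearly the share over all members. Genes of any biotype overlapped 53.3% of members (49.26 to 57.27%), 58.0% of all sites (56.9 to 59.2%) and 49.8% of the comparison sites (45.3 to 54.3%). Of the other double-marked sites they overlapped 58.48% (57.26 to 59.69%), an interval that only just overlaps that of the members. Such an overlap does not show equal shares, and the difference was not tested. A further 57 members overlapped only genes of other kinds and 277 no gene. Exons and introns were not analysed here.

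**Figure D4:**
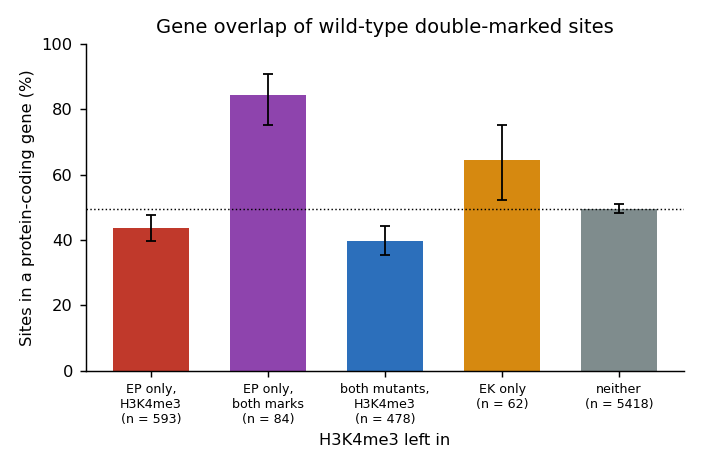
Share of wild-type double-marked sites that overlap a protein-coding gene (vertical axis, %), by class of residual H3K4me3. Bars are shares, error bars are 95% Wilson intervals and the dotted line is the share over all 6894 sites, 49.5%. The 593 members are at 43.7% and the 84 sites with both marks in EP at 84.5%.

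The share of members near a gene boundary depended on which genes were counted. A boundary of a protein-coding gene lay within 1 kb of 12 members (2.02%, 1.16 to 3.50%), against 3.39% of all double-marked sites (2.99 to 3.85%), 3.08% of the sites left in neither mutant (2.65 to 3.58%), 5.23% of the comparison sites (3.57 to 7.61%) and 9.52% of the sites with both marks in EP (4.91 to 17.7%). The interval of the members overlaps those of all sites and of the sites left in neither, so no difference from them is shown, and it ends just below that of the comparison sites. With genes of any biotype the share was 8.43% for members (6.45 to 10.9%) and 8.43% for all sites (7.80 to 9.11%). Within 5 kb of a protein-coding boundary the share was 14.3% for members (11.7 to 17.4%) and 13.8% for all sites, which does not set them apart. Over the 263 overlaps of a member with a protein-coding gene, the gene had a median span of 174.1 kb. The median was 177 kb over all double-marked sites, 194.4 kb for those left in neither mutant, 130.1 kb for the comparison sites and 121.6 kb for those with both marks in EP.

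The members were spread over many genes. They fell in 249 protein-coding genes, of which 235 held 1 member and 14 held 2. Those 14 ranged widely in length and include Ctnna3 (1573.6 kb, 8 double-marked sites), Rbfox1 (1527.7 kb, 5 double-marked sites) and Anks1b (1100.4 kb, 5 double-marked sites), as well as Edaradd (49.33 kb) and Nt5dc3 (59.4 kb). None of 45 genes of meiosis that were looked up held a member, and 2 of them, Tex11 and Cdyl, held any double-marked site. Over all 21887 protein-coding genes only 249 held a member, so the absence from this short list does not set its genes apart.

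Members occurred on every chromosome. Over the autosomes they made up 8.44% of the double-marked sites (563 of 6668, 7.80 to 9.14%), from 5.77% on chromosome 14 (18 of 312) to 11.4% on chromosome 17 (24 of 211). The X chromosome had 29 members among 224 sites (12.95%, 9.17 to 17.97%), so the lower end of its interval lies just above the upper end of the autosomal one. The shares were farthest apart below the ninth decile of width, where 17 of 168 X-linked sites (10.1%, 6.41 to 15.6%) and 242 of 5347 autosomal sites (4.53%, 4.001 to 5.12%) were members. Deciles 1 to 8 were pooled there, although the share of members ran from 1.59% to 14.2% across them. The double-marked width had a median of 1435.5 bp on X and 1336 bp over all sites, so width was not held equal. In the ninth decile the shares were 5 of 26 (19.2%) and 154 of 662 (23.3%), and in the widest 7 of 30 (23.3%) and 167 of 659 (25.3%). In both of these deciles the share was lower on X, with intervals that overlap. Sites kept in both mutants were also a larger share on X, with 41 of 224 (18.3%, 13.8 to 23.9%) against 10.4% of autosomal sites. No X-linked site was left in EK only (0 to 1.69%), an interval that includes the autosomal share of 0.93%. X-linked members had a median H3K4me3 width of 2085 bp in wild type and 841 bp in EP, and autosomal members 2007 and 812 bp. The Y chromosome had 1 member among 2 sites.

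**Figure D5:**
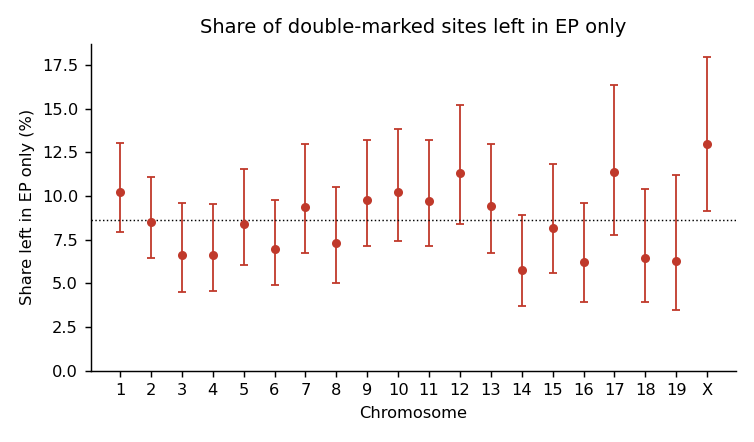
Share of wild-type double-marked sites that are members (vertical axis, %) on each autosome and on X (horizontal axis). Points are shares, bars are 95% Wilson intervals and the dotted line is the share over all sites, 8.60%. The autosomes run from 5.77% to 11.4% with overlapping intervals, and X is at 12.95%.

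Along the chromosomes, members were neighbours of each other about as often as their share of all sites. The nearest double-marked neighbour of a member was itself a member in 48 cases (8.09%, 6.16 to 10.6%), against 8.63% for double-marked sites in general. The median distance between a member and the nearest other member was 1306.3 kb. Only 8 members had another within 10 kb and 30 within 100 kb, and the shortest gap was 5426 bp. The distal 10 Mb of the autosomes held 41 members (6.91%, 5.14 to 9.25%), against 6.57% of all double-marked sites, and the proximal 10 Mb held 27 (4.55%, 3.15 to 6.54%), against 6.17%. Neither interval excludes the share of all sites. All intervals given cover sampling of sites only, and sites of the same libraries are not replicates of a genotype.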

How the data were processed

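The authors deposited 6 lists of positions, an H3K4me3 list and a double-marked list for each of 3 genotypes, 1 list per genotype and kind; the unit is a genomic position (unit other) and no column holds a count or score. Per the submitters' processing notes, Trimmomatic, BWA 0.7.9a, MACS 1.4 and build mm10 were used, with no thresholds given. Per the text deposited with the lists, intervals were kept only at known PRDM9-dependent places, the EK signal merged its replicates, and H3K4me3 lists for EP and wild type came from an earlier series. Per the labels' protocols, chromatin was fixed and cut with MNase. The extract protocol names the H3K4me3 antibody for every library, whereas the antibody labels give H3K36me3 for 3. Every sample was grouped by its title.

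Lists were compared by overlap of at least 1 bp in Python 3.11.15 with pandas 2.3.3, NumPy 2.4.6 and SciPy 1.17.1, and drawn with matplotlib 3.10.9. Starts were converted to count from 1. Medians have exact 95% order-statistic intervals. The code was tested on simulated lists. Genes and promoters came from RefSeq tables of GRCm38.p6, whose coordinates are those of mm10. Apart from the promoter windows, no base sequence of the sites was read. Sites named were the 8 widest members, the 4 with the largest kept share, the 3 narrowest, the 5 nearest an EK interval, the 5 widest that contain a whole promoter window, and members in listed genes, of which the list of hotspot genes is not reported here; genes with several members, and the intervals at the limits of the rule, were named after their values were seen. The members and lists were chosen with earlier results of these data known.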

Additional observations from a re-analysis of the deposited data

How the results depend on the processing

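The number of members was 593 with an overlap of at least 50% of the shorter interval (591 of them the same sites), 593 with midpoints at most 500 bp apart (586 the same), 593 after merging intervals within 500 bp, 589 with no EK interval within 1 kb, 563 on autosomes alone and 592 when the whole wild-type H3K4me3 interval had to lack EK, the last chosen after seeing the data. Over all results, 40 values stayed within the main interval or 1.5-fold range and 8 did not. The median wild-type width of members was 1694.2 bp as a geometric mean and 2007 bp over the H3K4me3 interval, and the EP median was 912 bp in the widest quintile of sites (chosen after seeing the data). The share overlapping a gene was 53.29% with genes of any biotype, against 58.04% of all double-marked sites and 49.79% of the comparison sites. The share near a boundary was 14.33% with a 5 kb limit and 8.432% with any biotype, against 13.81% and 8.428% of all double-marked sites. Split by H3K4me3 width, members were 8.484% of the fourth quintile and 26.58% of the widest, against 10.59% and 24.24% by double-marked width.

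No paired analysis was possible because there is 1 list per genotype and no list per replicate; leaving out a replicate was not run for the same reason. The planned comparison of sequence composition was not run, since no genome was used. Without heights or read counts, a missing interval cannot be read as a missing mark.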
